A study of Mus musculus with 12 samples.

Results

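The 10 genes described here carry heme breakdown, ferritin storage and iron transport in macrophages. They were chosen by symbol for these roles, with earlier results of these data known. They are Hmox1, Blvra, Blvrb, Fth1, Ftl1, Slc40a1, Slc48a1, Slc11a1, Tfrc and Ncoa4. All 10 were found among the 28977 gene IDs of the deposited expression table, and all 10 were among the 12026 genes that passed the filter on low values. The cells were J774A.1, an established mouse macrophage-like line, and the readout was mRNA sequencing. Hypochlorous acid (HOCl) is the oxidant that myeloperoxidase forms from hydrogen peroxide and chloride. The 4 groups of 3 libraries were cells kept in cell media, cells given Hanks' balanced salt solution (HBSS) with 0 µM HOCl, cells given 20 µM HOCl in HBSS and cells given 100 µM HOCl in HBSS. Every group had 1 h of its treatment and then 24 h in full medium, so all values were taken a day after the oxidant was removed. The labels report no genetic change to the line and do not state whether the 3 replicates of a group were grown apart, so p-values cover the spread among these samples alone, which may be technical.

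Macrophages take iron from heme and from transferrin. Heme oxygenase 1, made from Hmox1, opens the heme ring and releases iron, carbon monoxide and biliverdin. The biliverdin reductase made from Blvra turns it into bilirubin, and Blvrb encodes a flavin and biliverdin reductase. Freed iron is stored in ferritin, a shell of heavy (Fth1) and light (Ftl1) chains, or leaves through ferroportin (Slc40a1), while Tfrc, the transferrin receptor, brings iron in. When iron is scarce, iron regulatory proteins bind a stem and loop in these mRNAs, the iron-responsive element (IRE), which blocks translation from a 5′ untranslated region and protects the mRNA from decay in a 3′ untranslated region. The ferritin and ferroportin elements therefore act mainly on protein made per mRNA, which RNA sequencing does not measure, and those of Tfrc act on the mRNA level itself. Hmox1, ferritin and several of the other genes are also transcribed under the oxidant-responsive factor NRF2 and its competitor BACH1.

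The elements are shown because one in a 3′ region acts on the mRNA level and one in a 5′ region mainly on translation. In the GENCODE M21 transcripts (mouse build GRCm38), a search for an unpaired C, 5 paired bases, the loop CAGTGN without a final G, and the 5 pairing bases found a match in the 5′ untranslated region of 3 of the 10 genes and in the 3′ untranslated region of 1. Among all genes with such a region annotated, 0.112% of 20597 held a match on the 5′ side and 0.477% of 20979 on the 3′ side. Each line gives 30 bases of the transcript, 5′ to 3′ as DNA letters, with the 6 bases of the loop in capitals.
Fth1, 5′ region, chr19:9982732-9982761, plus strand: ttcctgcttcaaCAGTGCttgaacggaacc
Ftl1, 5′ region, chr7:45459778-45459807, minus strand: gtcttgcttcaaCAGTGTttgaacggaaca
Slc40a1, 5′ region, chr1:45925464-45925493, minus strand: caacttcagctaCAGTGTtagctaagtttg
Tfrc, 3′ region, element 1, chr16:32631219-32631248, plus strand: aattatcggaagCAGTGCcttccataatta
Tfrc, 3′ region, element 2, chr16:32631598-32631627, plus strand: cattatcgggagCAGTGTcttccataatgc
Tfrc, 3′ region, element 3, chr16:32631663-32631692, plus strand: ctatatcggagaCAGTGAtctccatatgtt
Tfrc, 3′ region, element 4, chr16:32631710-32631739, plus strand: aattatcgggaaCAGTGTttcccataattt
The ferritin chains and ferroportin thus hold a single match each, and Tfrc holds 4 in 1 transcript. These positions are in GRCm38, whereas the submitters' processing notes name GRCm39 for the expression values. A match describes the letters only, and a region without a match says nothing of other elements.

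The 12 libraries rested on 17683937 to 21408518 reads, and the reads behind the 10 genes ran from 207 for the lowest library of Slc40a1 to 264514 for the highest of Fth1. Replicates 1 and 2 of cell media differed from the rest: ribosomal protein genes held 12.9% and 12.8% of their summed FPKM, against 7.61% to 8.53% elsewhere, and results that rest on them are given with and without them. Each of 8 macrophage markers examined reached 1 FPKM in at least 1 library, and they summed to 3094 to 3390 FPKM in HBSS and 3559 to 4067 at 100 µM. The 6 erythroid markers in the table, among them globin genes, stayed below 1 FPKM each, and so did those of T, B, epithelial, fibroblast and endothelial cells. Of the 5 neutrophil markers only S100a8 reached 1 FPKM, and the sum was 9.99 to 12.9 FPKM in HBSS and 13.97 to 16.5 at 100 µM. The labels name 2 sequencing instruments and assign no library to either, so no value could be computed within an instrument.

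The levels of the 10 genes, in FPKM (fragments scaled to gene length and library size), covered a wide range in HBSS. Fth1 ranked 7th and Ftl1 ranked 10th of 12026 genes by their mean in HBSS, Tfrc ranked 280th and Slc11a1 367th. Hmox1 ranked 548th, followed by Slc48a1 (820th), Blvra (1261st) and Blvrb (1883rd). Ncoa4 ranked 7293rd and Slc40a1, the iron exporter, 9803rd. No 2 neighbours in this order overlapped within the 3 HBSS libraries. Over all 12 libraries 5 neighbouring pairs did overlap, among them Fth1 with Ftl1 and Hmox1 with Slc48a1.

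**Figure D1:**
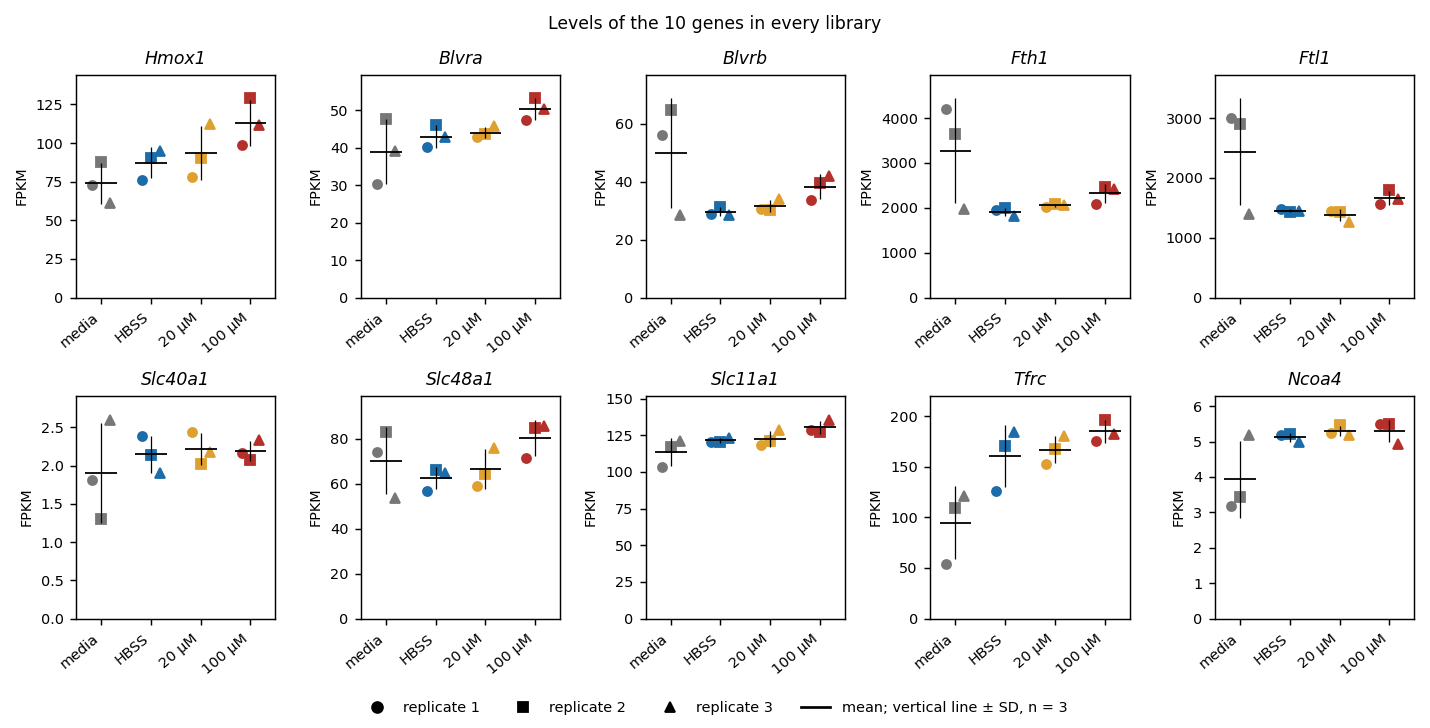
FPKM of each of the 10 genes (vertical axes, each from 0) in the 12 libraries, by group, with points for replicates, a bar for the mean and a vertical line for the SD (n = 3). Cell media replicates 1 and 2 lie far from replicate 3 for Fth1, Ftl1 and Blvrb, and the 100 µM points of Hmox1, Blvra, Blvrb, Fth1, Ftl1, Slc48a1 and Slc11a1 lie above all HBSS points.

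The first question was whether macrophages still carried a heme and iron response 24 h after HOCl. At 100 µM against HBSS, all 10 genes stood higher in the mean, by log2 differences of 0.02 to 0.37 with a median of 0.22, where 48.5% of all 12026 genes stood higher and their median was -0.01. The largest were Hmox1 (1.30-fold), Blvrb and Slc48a1, the gene of heme import from lysosomes, followed by Fth1. Slc40a1 and Ncoa4 differed by under 0.05. None of the 10 passed limma's moderated test (12 libraries, Benjamini-Hochberg adjusted p of 0.636 to 0.956), and neither did any other gene (0% called). For 7 of the 10 every 100 µM library stood above every HBSS library, which held for 16.5% of all genes. At an unadjusted p under 0.05 limma gave 2 of the 10, Hmox1 and Slc48a1, both higher, against 3.8% of all genes higher. The 10 were chosen with earlier results of these data known, so these shares describe them and test nothing.

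The spread used in that test includes the 2 divergent cell media libraries. Fitted on the 9 HBSS and HOCl libraries alone, limma gave 7 of the 10 genes an unadjusted p under 0.05, all higher (14.9% of all genes were higher at that level), and still called none of the 10 after adjustment (lowest adjusted p = 0.0633, for Blvrb), while it called 29 genes, 0.241% of those tested. With limma-voom on read numbers recovered from the FPKM of these 9 libraries, Blvrb and Fth1 were called, beside 6.36% of all genes (2.23% called as higher). In bulk libraries, a change in RNA per cell cannot be told apart from a change in which cells were left.

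**Figure D2:**
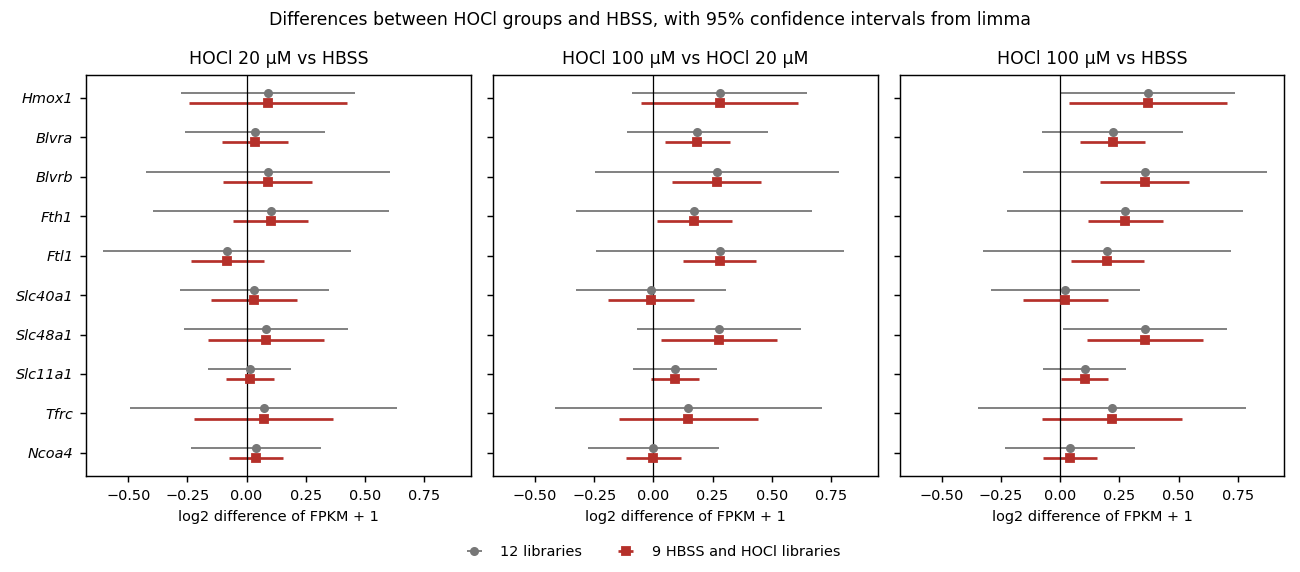
Log2 differences of FPKM + 1 with limma's 95% confidence intervals (horizontal axes) for each of the 10 genes in the 3 HOCl comparisons, from all 12 libraries (grey circles) and from the 9 HBSS and HOCl libraries (red squares). The intervals of the 12-library fit cross 0 for all genes at 20 µM and for 8 of 10 genes at 100 µM against HBSS.

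Hmox1 read 75.9, 90.6 and 95.03 FPKM in the HBSS replicates, 77.8, 90.4 and 112 at 20 µM, and 99.0, 129 and 111 at 100 µM. The 100 µM libraries all stood above HBSS, whereas the 20 µM libraries overlapped both groups. Its mean went from 87.2 ± 10.0 (SD, n = 3) in HBSS to 113 ± 15 at 100 µM, a log2 difference of 0.37 (SE 0.17, 95% confidence interval 0.0012 to 0.74, adjusted p = 0.636 in limma).

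Blvra, the main biliverdin reductase of adult tissue, read 40.2, 46.0 and 42.7 FPKM in HBSS, 42.8, 43.6 and 45.7 at 20 µM and 47.4, 53.1 and 50.3 at 100 µM. Its 100 µM libraries stood above those of both other HBSS-based groups, which overlapped each other. The log2 difference between 100 µM and HBSS was 0.22 (SE 0.13, adjusted p = 0.669 in limma).
Blvrb, a flavin and biliverdin reductase, read 28.7, 31.4 and 28.6 FPKM in HBSS, 30.6, 30.2 and 33.9 at 20 µM and 33.6, 39.5 and 41.9 at 100 µM. Again the 100 µM and HBSS libraries did not overlap, while the lowest 100 µM library lay just under the highest at 20 µM. Its log2 difference from HBSS at 100 µM was 0.36 (SE 0.23, adjusted p = 0.669 in limma).

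Among the storage genes, Fth1, the heavy chain that oxidises iron as it enters the shell, read 1943, 1986 and 1811 FPKM in HBSS, 2014, 2081 and 2063 at 20 µM and 2081, 2459 and 2421 at 100 µM. Both HOCl groups lay above HBSS in every library, and the lowest 100 µM library fell among those at 20 µM. The log2 differences from HBSS were 0.10 at 20 µM and 0.27 at 100 µM (SE 0.23 for both, adjusted p = 0.9999 and 0.692 in limma).
Ftl1, the light chain that helps to form the iron core, read 1477, 1435 and 1444 FPKM in HBSS, 1441, 1423 and 1261 at 20 µM and 1561, 1794 and 1653 at 100 µM. The 100 µM libraries lay above the other HBSS-based groups, and 20 µM replicate 3 was the lowest of all 12 libraries. The log2 difference from HBSS was -0.08 at 20 µM and 0.20 at 100 µM (SE 0.24 for both, adjusted p = 0.9999 and 0.753 in limma).

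The low Ftl1 value of 20 µM replicate 3 came with a high value of a near-identical gene copy. Ftl1-ps1, annotated as a pseudogene of the light chain, read 71.9, 96.2 and 68.5 FPKM in HBSS, 80.6, 124 and 244 at 20 µM and 118, 120 and 181 at 100 µM. Reads from such copies can be assigned to either gene, and how the authors' counting treated them is not known here. The copies Ftl1-ps1, Ftl1-ps2 and Ftl2-ps together held 16.4% of the summed light chain FPKM in 20 µM replicate 3 and 4.61% to 10.1% in the other libraries. With the copies added to Ftl1, the light chain had means of 1533 ± 18.6 FPKM in HBSS, 1527 ± 21.2 at 20 µM and 1813 ± 119 at 100 µM (SD, n = 3). The 20 µM libraries were then 1524, 1550 and 1508 FPKM, with replicate 3 still the lowest by a smaller margin, and the 100 µM libraries stayed above both other groups. The log2 difference from HBSS of the summed light chain was -0.01 at 20 µM and 0.24 at 100 µM (adjusted p = 0.9999 and 0.725 in limma).

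**Figure D3:**
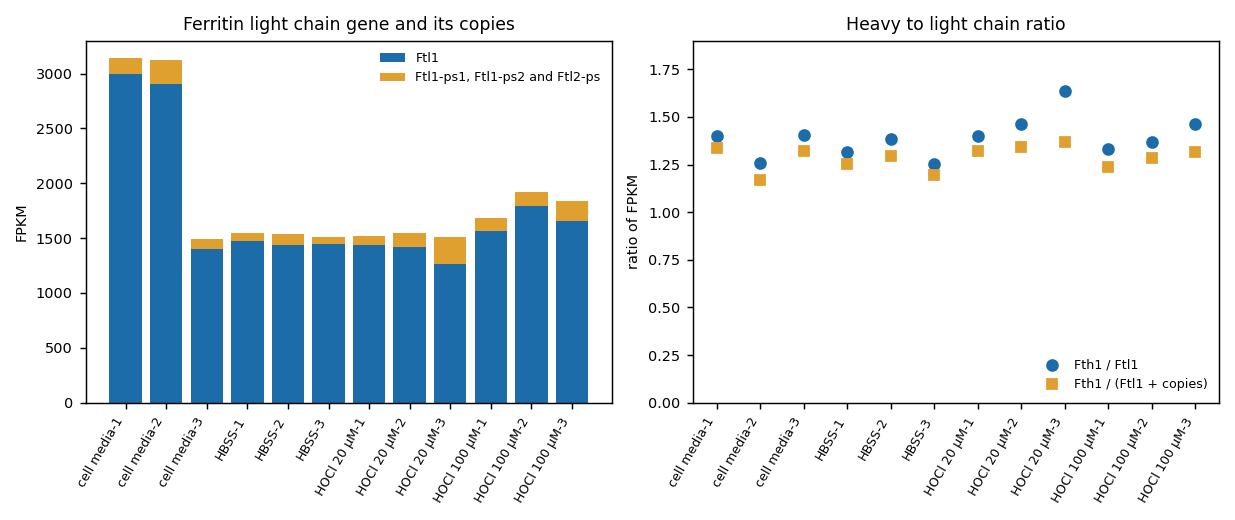
Left, FPKM of Ftl1 (blue) with its copies Ftl1-ps1, Ftl1-ps2 and Ftl2-ps stacked on it (orange) in each library. Right, the ratio of Fth1 to Ftl1 without (blue circles) and with (orange squares) the copies, where 20 µM replicate 3 falls from 1.64 to 1.37 once the copies are counted.

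Fth1 and Ftl1 differ in their share between tissues, so their ratio within each library was compared, which does not depend on the scaling of libraries. Fth1 stood at 1.32, 1.38 and 1.25 times Ftl1 in HBSS and at 1.40, 1.46 and 1.64 times at 20 µM. Those groups did not overlap, with a log2 difference of 0.18 (two-sided exact permutation test, p = 0.1, the smallest that 3 against 3 libraries allow). Without 20 µM replicate 3 it was 0.12 (exact p = 0.2). With the copies counted as light chain, the difference was 0.11 (exact p = 0.1). At 100 µM the ratio was 1.33, 1.37 and 1.46, which overlapped HBSS (log2 difference 0.08, exact p = 0.3, and 0.04 with the copies, exact p = 0.5). The ratio still carries the exon length trend described below, as Fth1 has 3469 bases and Ftl1 1340. With that trend removed, Fth1 differed from HBSS by 0.27 and Ftl1 by 0.10 at 100 µM. At 20 µM these values were 0.10 and -0.11. Both chains together held 1.04% to 1.28% of all FPKM in the 9 HBSS and HOCl libraries.

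Slc48a1 encodes HRG1, which moves heme from the lysosome to the cytosol, where heme oxygenase acts. It read 56.8, 65.9 and 65.0 FPKM in HBSS, 59.0, 64.3 and 76.1 at 20 µM and 71.3, 84.8 and 85.5 at 100 µM. Its 100 µM libraries lay above HBSS and partly within the range at 20 µM, and its log2 difference from HBSS at 100 µM was 0.36 (SE 0.16, 95% confidence interval 0.01 to 0.70, adjusted p = 0.636 in limma).
Slc11a1 encodes NRAMP1, a metal exporter of the phagosome membrane. It read 121, 121 and 123 FPKM in HBSS, 118, 121 and 129 at 20 µM and 128, 128 and 136 at 100 µM. The groups at the ends of the dose range did not overlap, but the difference was small, 0.10 on the log2 scale (SE 0.08, adjusted p = 0.686 in limma), and with quantile normalization it was -0.03.

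Slc40a1, ferroportin, the only iron exporter of the cell surface, read 2.39, 2.14 and 1.91 FPKM in HBSS, 2.44, 2.03 and 2.18 at 20 µM and 2.17, 2.07 and 2.33 at 100 µM. All 3 groups overlapped. Its log2 difference at 100 µM was 0.02 with a 95% confidence interval of -0.29 to 0.34 in limma, and it was -0.03 without HBSS replicate 3 and -0.01 without 100 µM replicate 3. With 207 to 476 reads per library it was the least covered of the 10 genes.
Tfrc read 126, 171 and 184 FPKM in HBSS, 153, 168 and 180 at 20 µM and 175, 197 and 183 at 100 µM. All 3 groups overlapped, with the widest range in HBSS, and the log2 difference at 100 µM was 0.22 (SE 0.26, adjusted p = 0.749 in limma). Ncoa4 encodes the receptor that delivers ferritin to the lysosome for degradation, and it read 5.17, 5.22 and 4.97 FPKM in HBSS, 5.26, 5.47 and 5.17 at 20 µM and 5.49, 5.48 and 4.93 at 100 µM. Its groups overlapped throughout (log2 difference 0.04 at 100 µM, 95% confidence interval -0.23 to 0.32 in limma).

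Differences between 100 µM and HBSS moved with exon length across the whole table. This is the merged length of all annotated exons of a gene, which can exceed that of any single mRNA. A gene may therefore stand in a longer class than its main mRNA would. Over 11895 genes with a known exon length, Spearman's rho between length and log2 difference was -0.41, a description across genes, which are not independent replicates. The median difference was 0.12 among the 2974 shortest genes (up to 1948 bases), 0.05 up to 3795 bases, -0.03 up to 6235 bases and -0.11 above that. Hmox1 (1751 bases) and Ftl1 (1340) belong to the shortest class, Blvra, Blvrb, Slc48a1, Fth1 and Slc11a1 to the next, Tfrc (6185) to the next, and Slc40a1 and Ncoa4 to the longest. Each of the 10 stood above the median of its own length class. With the length trend of every library removed, all 10 still stood higher, with a median of 0.22 against 0.02 for all genes, and none was called (lowest adjusted p = 0.493 in limma). Hmox1 then differed by 0.30, Ftl1 by 0.10, Tfrc by 0.29, Slc40a1 by 0.14 and Ncoa4 by 0.16. With quantile normalization, the median of the 10 was 0.10 and 9 stood higher. The differences of Fth1 (0.09), Ftl1 (0.02), Tfrc (0.12) and Blvra (0.14) were then smaller by over 1.5 times, and those of Slc40a1 (0.07) and Ncoa4 (0.09) larger. For the very highest genes, such as Fth1 and Ftl1, this scaling keeps little but rank. Fth1 accordingly differed from HBSS by the same 0.09 at 20 µM. The summed FPKM of the macrophage and neutrophil markers was also higher at 100 µM than in HBSS, without overlap, and its part in these differences was not tested.

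At 20 µM the 10 genes stayed close to HBSS. Of the 10, 9 stood higher and Ftl1 lower, by -0.08 to 0.10 on the log2 scale with a median of 0.06, against 0.01 over all genes, of which 53.9% stood higher. None was called by limma with 12 or 9 libraries (0% of all genes), none had an unadjusted p under 0.05 (0.856% of all genes did and were higher), and every adjusted p was 0.9999. Only Fth1 did not overlap HBSS, which was so for 4.21% of all genes in the higher direction. The 95% confidence intervals of the 10 reached from -0.60 to 0.64 in the 12-library fit, whose spread includes the divergent cell media libraries, and from -0.24 to 0.42 in the 9-library fit. The signs of 6 genes at 20 µM turned when a single library was left out (HBSS replicate 1 or 3, or 20 µM replicate 1 or 3).

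Between the doses, 8 of the 10 stood higher at 100 µM than at 20 µM, with a median log2 difference of 0.18 against -0.02 for all genes, of which 46.2% stood higher. The libraries did not overlap for Blvra and Ftl1, where 12.7% of all genes stood higher without overlap. Limma called none of the 10 with 12 libraries (adjusted p of 0.825 to 0.9998) and none with 9, and 0% of all genes in either fit. No unadjusted p of the 10 was under 0.05 with 12 libraries (1.26% of all genes were higher at that level). In the 9-library fit 5 of the 10 had an unadjusted p under 0.05, all higher, as did 10.5% of all genes. Both comparisons with HBSS share the same 3 HBSS libraries, so their values are not independent of each other.

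HBSS alone was compared with cell media to see what the salt solution step did without oxidant. The largest values belonged to Tfrc, which stood higher in HBSS, and to Fth1, Ftl1 and Blvrb, which stood lower. Of the 10, 6 stood higher in HBSS, as did 61.2% of all genes. None of the 10 was called by limma (2 genes, 0.0166% of all, were), although 5 had an unadjusted p under 0.05 (24.9% of all genes were higher and 15.1% lower at that level). Tfrc read 53.7, 109 and 121 FPKM in cell media, all below HBSS, and was the only one of the 10 without overlap, where 12.7% of all genes stood higher without overlap. Its log2 difference was 0.82 (SE 0.26, adjusted p = 0.0711 in limma). It was 0.39 (adjusted p = 0.644) with cell media replicates 1 and 2 left out, 0.46 without replicate 1 alone (adjusted p = 0.262) and 1.04 without replicate 3 (adjusted p = 0.00453).

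The ferritin differences rested on 2 libraries. Fth1 read 4202, 3654 and 1972 FPKM in cell media and Ftl1 2997, 2901 and 1402, so that replicate 3 was at or just below the HBSS range while replicates 1 and 2 were far above it. Blvrb followed the same split, at 56.2, 64.8 and 28.6 FPKM. Ferritin took 1.85% and 1.69% of all FPKM in replicates 1 and 2 and 1.09% in replicate 3. Against all 3 replicates the log2 differences of HBSS were -0.70 for Fth1, -0.66 for Ftl1 and -0.65 for Blvrb (adjusted p = 0.0718, 0.0809 and 0.0808 in limma). With replicates 1 and 2 left out they were -0.04, 0.05 and 0.05, and with replicate 3 left out -1.03, -1.02 and -1.005 (adjusted p = 7.9e-06, 4.01e-06 and 1.88e-05), in a fit that called 65.3% of all genes. Which of these cell media libraries stands for the condition cannot be told from the data.

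Ncoa4 went with the same libraries in the opposite direction, at 3.18, 3.44 and 5.18 FPKM in cell media. Slc40a1 read 1.81, 1.30 and 2.60 FPKM there, again with replicate 3 the highest. Hmox1 read 72.9, 87.8 and 61.4 FPKM in cell media, where replicate 3 was the lowest, and its log2 difference in HBSS was 0.24 with all 3 replicates and 0.49 with replicate 3 alone (adjusted p = 0.277 and 0.644 in limma). Blvra read 30.2, 47.6 and 39.0 FPKM, Slc48a1 73.9, 83.2 and 53.9, and Slc11a1 103, 117 and 121, each overlapping HBSS. Exon length moved with this comparison too: rho between length and difference was 0.40, and with the trend removed the differences were 0.64 for Tfrc, -0.74 for Fth1 and 0.07 for Ncoa4.

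**Figure D4:**
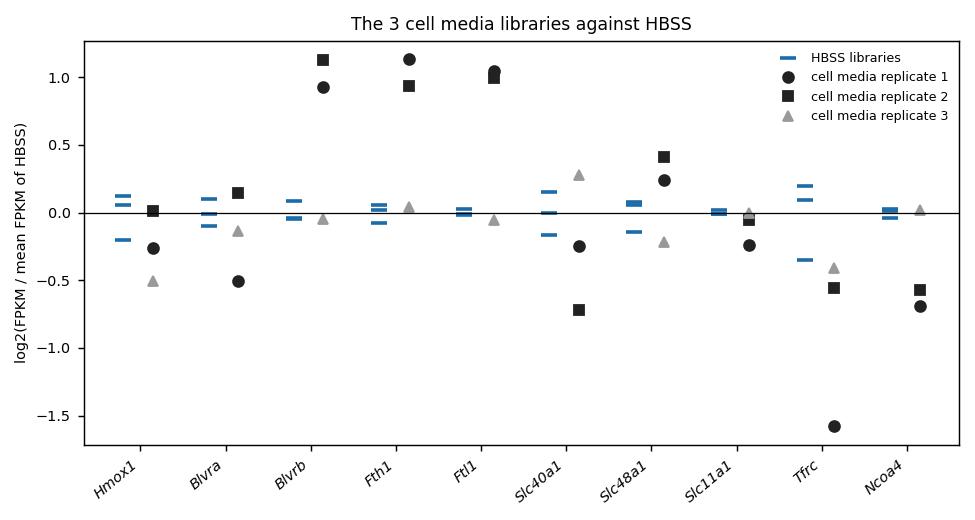
Log2 of the FPKM of each cell media library over the mean FPKM of the 3 HBSS libraries (vertical axis) for the 10 genes, with the HBSS libraries as blue dashes. Cell media replicates 1 and 2 lie together near 1 for Fth1, Ftl1 and Blvrb, whereas replicate 3 lies near 0.

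Tfrc and Fth1 carry IREs on opposite ends of their mRNAs, and the ratio of their levels was compared within libraries. The Fth1 element acts mainly on protein made per mRNA, so this ratio of mRNA levels is not a measure of IRE activity. Their exon lengths also differ, and differences between HBSS and cell media moved with length. Tfrc amounted to 1.28%, 2.99% and 6.14% of Fth1 in cell media and to 6.49%, 8.60% and 10.2% in HBSS, which did not overlap (log2 difference 1.53, two-sided exact permutation test, p = 0.1, the smallest possible). It was 0.95 without cell media replicate 1 and 2.08 without replicate 3. Cell media replicate 3 was close to the lowest HBSS library, and replicates 1 and 2 were far below. Among HBSS and the HOCl groups the ratio overlapped, with log2 differences of -0.05 at 100 µM and -0.03 at 20 µM (exact p = 0.8 and 1), and these signs turned when HBSS replicate 3 was left out (0.09 and 0.12).

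Other genes of heme and iron handling were examined as lists. None of their members was called in any HOCl comparison by the main limma fit of 12 libraries or the same fit on 9. With replicate number added to the 9-library fit as a block, 2980 of 12026 genes were called at 100 µM against HBSS. Among these were Alad, Alas1, Slc46a1, Pgrmc1, Steap3 and Tfeb as higher. Lrp1, Slc11a2, Lcn2, Herc2, Ireb2, Slc25a37, Mafg and Mafk were among those called as lower. With limma-voom on 9 libraries, 6 of the 68 list genes with enough signal were called at 100 µM against HBSS. Alad was called as higher, and Ireb2, Herc2, Bach1, Mafg and Mafk as lower. That fit called 6.36% of all 11895 genes, 265 as higher and 491 as lower. Of 8 heme synthesis genes with enough signal, 6 stood higher at 100 µM than in HBSS, with a median log2 difference of 0.10, and 3 did not overlap, all higher (16.5% of all genes were higher and 17.6% lower without overlap). Alad, which joins aminolevulinate into porphobilinogen, had a mean of 17.8 ± 1.96 FPKM in HBSS against 23.3 ± 2.50 with 100 µM (difference 0.37, adjusted p = 0.65 in limma). Alas1, the rate-limiting first enzyme, had means of 10.3 ± 1.05 and 11.99 ± 0.356 FPKM, and both enzymes were higher in every 100 µM library than in any HBSS library. Ppox, a late enzyme of the pathway, differed by -0.25 with overlap.

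Among 6 heme transport and scavenging genes, 3 stood higher and 3 lower. Of these, 2 were higher and 1 lower without overlap, against 16.5% and 17.6% of all genes. Slc46a1, a folate and heme carrier, had a mean of 3.65 ± 0.228 FPKM in HBSS against 4.45 ± 0.435 with 100 µM (difference 0.23), and the heme-binding membrane protein gene Pgrmc1 differed by 0.19, both without overlap. Lrp1, the receptor for hemopexin-bound heme, differed by -0.32 with overlap. Of 10 iron uptake and endosomal release genes, 6 stood higher with a median of 0.04. In this list 4 did not overlap, all higher, as 16.5% of all genes were. Steap3, the ferrireductase of the transferrin endosome, differed by 0.18 without overlap, while the iron importer gene Slc11a2 (-0.17) and the siderophore-binding lipocalin Lcn2 (-0.52) overlapped. The heme oxygenase partners Hmox2 and Por differed by 0.14 and 0.06 with overlap.

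The iron sensing list held 7 genes with enough signal, 4 higher and 3 lower. The 3 lower were Ireb2, Fbxl5 and Herc2, all without overlap, which held for 17.6% of all genes in the lower direction. Of the 4 higher, 1 did not overlap, as did 16.5% of all genes in that direction. Values of the lists are given without removal of the exon length trend. Ireb2 encodes iron regulatory protein 2, which binds IREs. It read 14.4, 13.9 and 14.4 FPKM in HBSS and 12.6, 11.4 and 10.6 at 100 µM (difference -0.29, SE 0.18, adjusted p = 0.669 in limma). FBXL5 and HERC2 are ubiquitin ligase components, the first acting on that protein and the second on the first, and their mRNAs differed by -0.28 and -0.38. Epas1, encoding the hypoxia factor HIF2α, differed by 0.13. Fbxl5 was singled out after its values were seen.

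Of 21 genes of mitochondrial iron and iron-sulfur cluster assembly, 12 stood higher and 9 lower, with a median of 0.05. Without overlap, 7 were higher and 2 lower, against 16.5% and 17.6% of all genes. Slc25a37, encoding the mitochondrial iron importer mitoferrin 1, read 30.9, 22.6 and 23.1 FPKM in HBSS and 23.4, 15.7 and 13.5 at 100 µM. These ranges overlapped, and the log2 difference was -0.54 (SE 0.24, adjusted p = 0.636 in limma). Slc25a28, its relative mitoferrin 2, differed by -0.19 with overlap.

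Of 12 genes for transcription factors of Hmox1, ferritin and ferroportin, and their regulators, 5 stood higher and 7 lower, with a median of -0.03. Without overlap, 2 were higher and 3 lower, against 16.5% and 17.6% of all genes. Mafg and Mafk encode small MAF proteins, which pair with NRF2 to activate and with BACH1 to repress the same elements. Mafg read 27.4, 24.6 and 27.1 FPKM in HBSS and 23.9, 21.0 and 20.6 at 100 µM, and Mafk 6.13, 6.24 and 6.61 against 5.46, 5.26 and 5.21. Neither overlapped, and their log2 differences of -0.26 and -0.21 had unadjusted p-values of 0.00609 and 0.0109 and an adjusted p of 0.602 in limma. Bach1, noted after its values were seen, differed by -0.28 without overlap. Tfeb, which drives lysosomal genes, had a mean of 2.11 ± 0.0823 FPKM in HBSS against 2.62 ± 0.224 with 100 µM, without overlap (difference 0.22). At 20 µM the medians of the 6 main lists lay between -0.01 and 0.02.

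**Figure D5:**
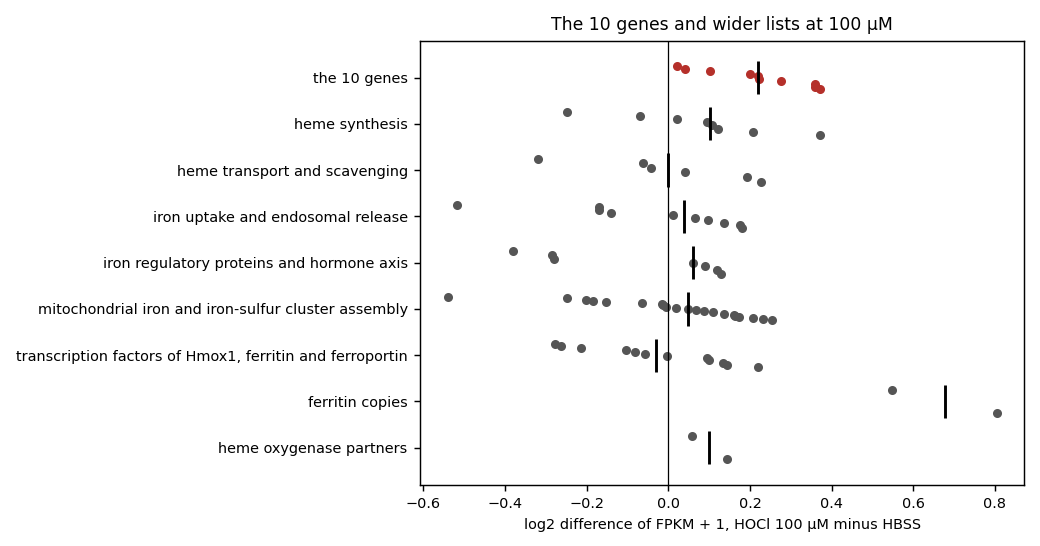
Log2 differences of FPKM + 1 between 100 µM HOCl and HBSS (horizontal axis) for the 10 genes (red) and for the members of each list of other heme and iron genes (grey), with a bar at each median. The 10 genes all lie right of 0 with a median of 0.22, and the lists of larger size straddle 0.

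Matches to the antioxidant response element, searched as TGACNNNGC on both strands in the 250 bases before each start in RefSeq promoter windows (GRCm38), were found in 10.2% of 32851 windows. Of the 10 genes, 7 had windows in that table, 12 in all, and 2 windows held a match: Blvra at position -49 on the opposite strand, GCTCGGTCA, and a window of Ncoa4 at -44, TGACCTGGC. These are descriptions of letters, and enhancers farther away were not searched. Hmox1, Slc40a1 and Slc48a1 were not matched in the table.

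Over the 9 HBSS and HOCl libraries, which share controls and replicate numbers, the genes whose log2 FPKM followed Hmox1 most closely were Glrx5, an iron-sulfur cluster glutaredoxin (Pearson's r = 0.99), Nudt1, which clears oxidised nucleotides (0.98), and Gpat4 (0.98). Slc48a1 ranked 40th by likeness to Hmox1 (r = 0.96). For Fth1 they were Scp2, Dnajc15 and Cnbp (0.98 each), and for Tfrc Nutf2, Cdc6 and Prps2 (0.99, 0.99 and 0.98). Within HBSS and both HOCl groups, replicate 1 was the lowest of its group for 4 of the 10 genes, Hmox1, Blvra, Slc48a1 and Tfrc, as it was for 15.3% of all genes.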

How the data were processed

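The authors deposited a single table of FPKM values for the 12 libraries. HISAT2, featureCounts and GRCm39 are named in the submitters' processing notes. Their versions, the strand setting and the handling of multi-mapped reads are not given in the sources used here. FPKM divides by gene length, so an unequal yield of short and long transcripts passes into the values. Symbols and exon lengths came from GENCODE M21 (28302 of 28977 IDs had a symbol). Values below 1 FPKM times exon length were whole multiples of 1 read, within 0.01, for 98.26% (2% by chance), which gave the reads per library and the reads for limma-voom.

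Genes with at least 1 FPKM in at least 3 libraries were kept. Log2(FPKM + 1) was fitted by limma (version 3.58.1, R 4.3.3), two-sided, with 1 mean per group over 12 libraries and a mean-variance trend, and an adjusted p under 0.05 (Benjamini-Hochberg) was a call. Fold changes on this scale understate those of low genes. The step was tested on simulated data. Ratios were tested with an exact permutation test. Tables and plots used Python 3.11.15, numpy 2.4.6, pandas 2.3.3 and matplotlib 3.10.9.

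The 10 genes and the lists were chosen with earlier results of these data known. Named genes are the 10, up to 3 genes per list with the smallest p at 100 µM against HBSS, and the 3 most correlated with Hmox1, Fth1 or Tfrc. A gene that this rule names is not reported here. Alternatives were a pseudocount of 0.1, no filter, median-of-ratios and quantile scaling, a replicate block, 10 or 9 libraries and leaving out each library. Limma-voom, the 9-library fits with other settings, the light chain copies and removal of a loess trend on exon length (span 0.5) were added after seeing the data.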

Additional observations from a re-analysis of the deposited data

How the results depend on the processing

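With 3 libraries a group and no label on cultures or instruments, small differences remain uncertain. At 100 µM against HBSS, 8 of the 10 genes kept a positive difference under every alternative run, the exceptions being Slc11a1 and Slc40a1, and 7 adjusted values passed 0.05, 5 in 9 libraries with the replicate block and 2 with limma-voom. Genes called there, 0 in 12 libraries, numbered 29 with 10 or 9 libraries, 78 with 9 and median-of-ratios scaling, 756 with limma-voom on 9, 1 with 9 and the exon length trend removed, 1 without a filter and 0 to 5 when 1 library was left out (5 without cell media replicate 3). At 20 µM against HBSS 6 were called without a filter. Between the doses 11 were called without a filter and 0 to 1 when leaving out a library. HBSS against cell media, with 2 called, gave 0 with 10 libraries, 18 with the length trend removed, 4 with limma-voom, 5 without a filter, 4 with quantile normalization and 0 to 7852 when leaving out a library (7852 without cell media replicate 3). The causes were not tested.

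The labels number the replicates but do not say that numbers pair samples. Of 18 same-numbered pairs 7 correlated above 0.1 in their deviations (-0.42 to 0.41). Within HBSS and the HOCl groups 5 of 9 did (-0.06 to 0.41). Of 12 libraries 6 correlated best with their own number. These values do not settle whether numbers pair samples, and the main fit used no pairing. A replicate block gave 193 calls for HBSS against cell media and 0 in the HOCl comparisons with 12 libraries. With 9 libraries it gave 2980 of 12026 at 100 µM against HBSS, among them Hmox1, Blvra, Blvrb, Fth1 and Slc48a1, and 2077 between the doses, among them Blvra, Blvrb, Ftl1 and Slc48a1.

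Signs turned for small differences. With quantile normalization (12 and 9 libraries) Slc11a1 was -0.0256 and -0.0257 at 100 µM against HBSS, -0.00384 and -0.00429 at 20 µM and -0.0218 and -0.0214 between the doses, and Por -0.00178 and -0.00197. Between the doses Slc40a1 was 0.0584 and 0.0583 with quantile normalization, 0.00776 and 0.000983 with median-of-ratios scaling and 0.109 with the length trend removed, and Ncoa4 0.0568 and 0.0568, 0.0211 and 0.0129, and 0.124. In HBSS against cell media, 10 libraries gave Blvrb 0.0473, Ftl1 0.0508, Slc40a1 -0.198, Slc48a1 0.209 and Ncoa4 -0.0136, the length trend removed gave Slc40a1 -0.122, and median-of-ratios scaling, which moved the median of all genes from 0.10 to 0.01, gave Slc11a1 -0.021.

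Leaving out 1 library gave log2 differences of the Tfrc to Fth1 ratio from -0.23 to 0.0938 (100 µM against HBSS), -0.206 to 0.118 (20 µM against HBSS), -0.0731 to 0.0284 (between the doses) and 0.952 to 2.08 (HBSS against cell media). For the Fth1 to Ftl1 ratio the ranges were 0.0372 to 0.112, 0.119 to 0.232, -0.156 to -0.0428 and -0.0927 to -0.00498 in the same order. At 100 µM against HBSS Slc40a1 ranged from -0.0327 to 0.0771. At 20 µM the ranges were -0.0487 to 0.213 for Hmox1, -0.0108 to 0.0853 for Blvra, -0.023 to 0.0868 for Slc40a1, -0.0184 to 0.163 for Slc48a1, -0.023 to 0.0378 for Slc11a1 and -0.0912 to 0.18 for Tfrc. Between the doses they were -0.0525 to 0.0394 for Slc40a1 and -0.0218 to 0.0427 for Ncoa4, and in HBSS against cell media -0.00679 to 0.313 for Blvra and -0.0181 to 0.305 for Slc40a1.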
